A study of Mus musculus with 11 samples.

Results

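The 10 genes described here were chosen by name as imprinted growth genes, with earlier results of these data known, and were looked up by Ensembl identifier in a table of 28222 genes. All 10 were in the table, none had 0 counts in any library, and all 10 passed the filter on low counts in each comparison. The maternally expressed members were H19, Meg3, Cdkn1c and Grb10, and the paternally expressed ones Igf2, Dlk1, Peg3, Mest, Plagl1 and Ndn. The choice was based on the levels of these genes across the libraries, so their levels and differences are given as descriptions without p-values. Where a member is said to be called or to pass a threshold over all genes, this too is a description and not independent support.

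Genomic imprinting is the silencing of a gene according to the parent it came from, so that many imprinted genes are read from a single copy. In mammals the paternally expressed genes tend to promote growth before birth and the maternally expressed ones to restrain it, and most of these genes are silenced after birth outside of a few tissues and stem or progenitor cells. Imprinted genes lie in domains controlled by DNA methylated on the copy of 1 parent, and H19 with Igf2 and Meg3 with Dlk1 are the best known pairs, each joining a maternally expressed long noncoding RNA to a paternally expressed growth gene. The counts used here do not separate the copies of the parents.

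Polyadenylated RNA of cultured mouse mesenchymal stem cells (MSCs) was sequenced in 11 libraries, all from cells kept at 2% oxygen. Young mice were 3 to 5 months old and old mice 18 to 22 months old. Batch A held 4 young libraries, batch B 2 young and 2 old libraries, and batch C 3 old libraries, so that age and batch could be separated only within batch B. The labels give neither the strain nor whether libraries came from separate mice or cultures, and the spread between them may be partly technical.

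Total counts were between 11969336 and 20315934 per library, and 3 counts, taken as the smallest detectable level, corresponded to 0.156 to 0.253 CPM (counts scaled to a common library size). The MSC markers Pdgfra (109 to 289 CPM) and Ly6a (270 to 778 CPM) were present in all libraries. The blood marker Ptprc was also present, at 3.47 to 22.2 CPM. The summed level of 12 blood cell markers was 684 to 1510 CPM in batch A young, 385 to 778 in batch B young, 785 to 1130 in batch B old and 135 to 159 in batch C old. For the same groups in the same order, 8 markers of dividing cells summed to 215 to 433, 116 to 133, 164 to 244 and 448 to 514 CPM. The 6 adipocyte markers summed to 24 to 35.8, 19.6 to 20, 17 to 26 and 65.4 to 82.9 CPM, and the 6 osteoblast markers to 195 to 246, 166 to 181, 324 to 345 and 407 to 580 CPM. The markers of dividing cells did not rise as a whole. Mki67, Top2a, Bub1 and Cenpf were higher in batch C old than in batch A young without overlap. Plk1 was lower (means of 14.9 against 31.2 CPM), and Ccnb1, Cdk1 and Aurkb overlapped. Stromal markers (12 genes) summed to 58200 to 66700 CPM in batch A young and to 24800 to 47800 in the other groups. Most of each sum was Col1a1, at 52300 to 61700 CPM in batch A young and 18400 to 19400 in batch C old. The other stromal markers went both ways between these groups. Pdgfra, Itgb1, Prrx1 and Cxcl12 were higher in batch C old without overlap, and Pdgfrb, Ly6a, Eng and Cd44 were lower. Thy1, Lepr and Vcam1 overlapped. Endothelial markers (6 genes) reached at most 10.4 CPM, and of 6 skeletal muscle precursor markers only 3 were in the table, with a sum of 0.748 to 4.11 CPM and with Pax7 at 0 in batches A and C. The 5 chondrocyte markers overlapped between batch A young (954 to 1180 CPM), batch B young (715 to 1270 CPM) and batch C old (1120 to 1150 CPM) and were at 478 to 909 CPM in batch B old. The 4 Y-linked genes summed to 126 to 149 CPM in batch A young and to 198 to 231 CPM in the other groups. These levels moved with the batches and, within batch B, several of them also moved with age, and their part in the differences between groups given here was not tested. In RNA of whole cultures, fewer cells of a type and less RNA per cell cannot be told apart.

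H19 hosts a microRNA, miR-675, cut from its exon and known to restrain growth in the placenta. The mature sequences of both arms are shown because H19 was among the members that differed most between groups. Sequences are from RefSeq (GRCm38.p6), with the seed, bases 2 to 8 from the 5′ end, in capitals.
mmu-miR-675-5p: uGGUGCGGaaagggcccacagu
mmu-miR-675-3p: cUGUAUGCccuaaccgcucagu
They lie at chr7:142577112-142577133 and chr7:142577078-142577099 on the minus strand, within an exon in 3 of the 7 annotated H19 transcripts. The seeds of both arms differ. Igf2 hosts miR-483, Mest miR-335, and Meg3 miR-770 and miR-1906. None of these microRNA genes had a row in the table, so the values below are those of the host transcripts.

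H19 is a noncoding RNA that is abundant in the fetus and shut down in most tissues after birth (ENSMUSG00000000031, chr7:142575529-142578143, minus strand, GRCm38). Its level was 75.1, 98.8, 70.1 and 103 in batch A young, 217 and 157 in batch B young, 104 and 195 in batch B old, and 441, 463 and 440 CPM in batch C old. All batch B libraries lay above those of batch A, all batch C libraries lay above those of batch B, and both ages of batch B overlapped. Means ± SD were 86.7 ± 16.4 CPM (n = 4), 187 ± 42.1 (n = 2), 149 ± 64.1 (n = 2) and 448 ± 12.7 (n = 3), so that batch C old exceeded batch A young 5.17-fold.

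Meg3, a noncoding RNA of the Dlk1 to Dio3 domain with growth-restraining properties (ENSMUSG00000021268, chr12:109541001-109571726, plus strand), had the widest range of the members. It was at 114, 132, 82.9 and 105 in batch A young, 65.2 and 72.4 in batch B young, 51.5 and 54.1 in batch B old, and 637, 620 and 634 CPM in batch C old. No 2 groups overlapped. The mean of batch C old was 630 ± 9.2 CPM (SD, n = 3), and was 5.8 times that of batch A young (109 ± 20.5, n = 4) and 11.9 times that of batch B old (52.8 ± 1.82, n = 2).

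The sequence around the upstream RefSeq start of Meg3 (chr12:109540746-109541045, plus strand, GRCm38.p6, 250 bases before and 50 after the start) is shown because Meg3 was the member with the largest difference. Capitals mark TATAAA, a core promoter motif searched on both strands.
Meg3 promoter: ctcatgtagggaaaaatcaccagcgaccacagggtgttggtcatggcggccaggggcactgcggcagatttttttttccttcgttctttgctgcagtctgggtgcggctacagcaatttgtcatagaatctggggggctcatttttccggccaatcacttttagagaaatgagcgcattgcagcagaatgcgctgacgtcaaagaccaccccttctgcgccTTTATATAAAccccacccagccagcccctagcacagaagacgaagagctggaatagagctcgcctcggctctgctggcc
The motif begins 25 bases before the start on the plus strand and, overlapping it, 29 bases before the start on the minus strand. Of 15 promoters of 8 members in the RefSeq table it was found in this 1 only, and 13.6% of all 32851 promoters held it on either strand. Another motif searched, GGGGCCCC, was found in Peg3 alone and in 1.08% of all promoters. Of the 15 promoters, 6 met the usual criteria of a CpG island, against 33.5% of all. A motif in these windows is a description of the letters and not a site of binding.

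Igf2 is the fetal insulin-like growth factor (ENSMUSG00000048583, chr7:142650766-142666816, minus strand), and lies 72.6 kb from H19. Igf2 was measured at 81.4, 113, 105 and 164 in batch A young, 58.7 and 79.5 in batch B young, 64.2 and 100 in batch B old, and 225, 200 and 215 CPM in batch C old. The batch C libraries were above all others, while batch B young lay below batch A and overlapped batch B old. The antisense gene Igf2os had 18 counts in all libraries together.

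Dlk1 codes for a membrane protein of the Notch ligand family that keeps progenitors, those of adipocytes included, from differentiating (ENSMUSG00000040856, chr12:109452823-109463336, plus strand). It lies 77.7 kb from Meg3. Levels of Dlk1 were 67.7, 130, 50.5 and 72.5 in batch A young, 28 and 23.6 in batch B young, 37.2 and 25.9 in batch B old, and 117, 68.6 and 119 CPM in batch C old. The 4 libraries of batch B were the lowest, and batches A and C overlapped. Its spread in batch A young, 80.3 ± 34.7 CPM (n = 4), was among the widest of the members relative to the mean, and 1 library at 130 CPM exceeded those of batch C.

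Cdkn1c codes for p57Kip2, an inhibitor of cyclin-dependent kinases that stops the cell cycle (ENSMUSG00000037664, chr7:143458339-143461050, minus strand), 791.5 kb from Igf2 in the same chromosomal region. Its level was low, at 2.88, 5.74, 4.79 and 6.42 in batch A young, 13.3 and 11.4 in batch B young, 7.54 and 9.41 in batch B old, and 16.2, 18.3 and 14.9 CPM in batch C old. The 4 groups did not overlap and took the order of H19, with batch A young lowest, then batch B old, batch B young and batch C old. Grb10, an adaptor that dampens signalling of the insulin and IGF1 receptors (ENSMUSG00000020176, chr11:11930508-12038683, minus strand), was the steadiest of the abundant members. Its values were 421, 398, 333 and 360 in batch A young, 465 and 363 in batch B young, 434 in both libraries of batch B old, and 455, 437 and 450 CPM in batch C old. Batch C old exceeded batch A young by 1.18-fold only, although these groups did not overlap.

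Mest codes for a hydrolase-like protein of mesoderm (ENSMUSG00000051855, chr6:30723547-30748465, plus strand). Values were 218, 205, 239 and 243 in batch A young, 388 and 275 in batch B young, 182 and 199 in batch B old, and 125, 168 and 130 CPM in batch C old. Batch C old was lowest, where H19 and Meg3 were highest, batch B young was highest, and the 4 groups did not overlap. Mest overlaps Copg2 on the opposite strand. Copg2 had 12030 counts over all libraries, and as the use of strand in counting is not given, reads of both cannot be told apart where they overlap.

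Plagl1 codes for a zinc finger transcription factor that regulates other imprinted genes (ENSMUSG00000019817, chr10:13060504-13131694, plus strand). It had 39.4, 51.4, 43.8 and 53.8 in batch A young, 55.8 and 36.3 in batch B young, 36 and 34.5 in batch B old, and 63, 70.9 and 68.7 CPM in batch C old, with batch C above all others. Peg3, a zinc finger protein (ENSMUSG00000002265, chr7:6703892-6730431, minus strand), was low and ranged from 5.7 to 14.1 CPM. No neighbouring groups in the order of its means were separate. Ndn codes for the growth suppressor necdin (ENSMUSG00000033585, chr7:62346569-62350262, plus strand) and ranged from 48.2 to 68.2 CPM. Batch C old had its lowest mean, 51.6 ± 3.49 CPM (n = 3), but overlapped batch A young (59.4 ± 6.19, n = 4).

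**Figure D1:**
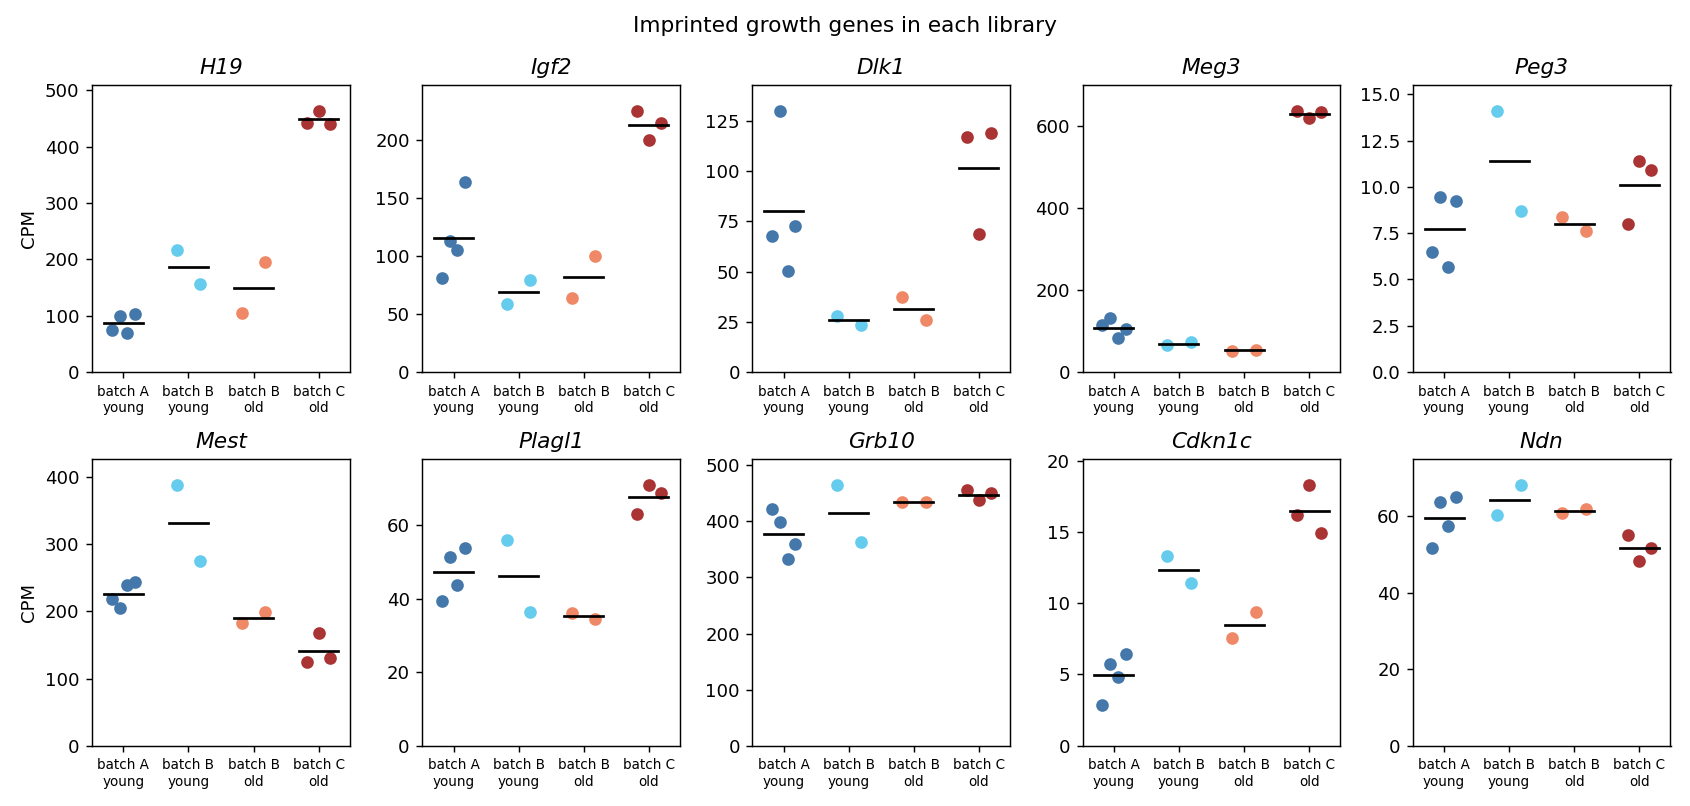
CPM (TMM-scaled, linear axis from 0) of the 10 imprinted growth genes, with a point for each library and a bar at the group mean, for batch A young (4), batch B young (2), batch B old (2) and batch C old (3). The batch C libraries of H19 (440 to 463 CPM) and Meg3 (620 to 637 CPM) lie above all others, those of Mest (125 to 168 CPM) lie below, and Grb10 shows little spread.

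Levels of different genes were compared per kb of the longest annotated transcript. On this scale Mest led in batch A young (84.9 ± 6.85 CPM per kb, SD, n = 4), ahead of Grb10 (74.7 ± 7.72), H19 (37.9 ± 7.19), Igf2 (24.6 ± 7.4), Dlk1 (17.3 ± 7.46) and Ndn (16.1 ± 1.67). Plagl1 (8.96 ± 1.26), Meg3 (7.47 ± 1.41), Cdkn1c (2.61 ± 0.808) and Peg3 (0.888 ± 0.22) followed. In batch C old the first place was held by H19 (196 ± 5.58 CPM per kb, n = 3), followed by Grb10 (88.5 ± 1.85), Mest (52.9 ± 8.8), Igf2 (45.2 ± 2.69) and Meg3 (43.3 ± 0.633). Neighbours in these orders whose values lie within a SD of each other, such as Dlk1 and Ndn in batch A young, are not told apart.

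Age was compared within batch B, in an edgeR fit to the 11 libraries that adjusted for batch. Of the 10 members, 7 had a log2 fold change below 0 for old against young and 3 above 0, with a median of -0.35 against 0 for all genes tested. Mest had a log2 fold change of -0.80 ± 0.16 (SE), lower in old cells, and was the 1 member past the threshold, an adjusted p under 0.05 over all genes. Of all 16132 genes tested, 2.23% were called in either direction and 1.54% were called lower. Mest lost its call without either old library of batch B, without young replicate 1 of batch B (log2 fold change -0.53) and in a fit to batch B alone (-0.80).

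The other members differed less against their errors. Cdkn1c was at -0.55 ± 0.25, Peg3 at -0.53 ± 0.27, Plagl1 at -0.39 ± 0.18, Meg3 at -0.38 ± 0.16 and H19 at -0.32 ± 0.24. Values for Ndn (-0.07 ± 0.12), Grb10 (0.07 ± 0.14), Igf2 (0.25 ± 0.25) and Dlk1 (0.29 ± 0.35) were within a SE or so of 0. In 5 members (Meg3, Peg3, Mest, Plagl1 and Cdkn1c) both old libraries of batch B were below both young ones, and in none were both above, whereas 20.6% of all genes tested were separate in the lower and 19.2% in the higher direction. Within batch B the summed blood markers (385 to 778 CPM in young, 785 to 1130 in old) and markers of dividing cells (116 to 133 and 164 to 244 CPM) did not overlap between ages either. The same held for the osteoblast markers (166 to 181 CPM in young, 324 to 345 in old), which were higher in old. It also held for the stromal markers (28800 to 47800 and 26200 to 27700 CPM), which were lower. The sum of the muscle precursor markers (0.748 to 1.09 and 3.47 to 4.11 CPM) was higher in old, but was nearly all Des. Des alone had 1.04 and 0.612 CPM in young and 4.11 and 3.47 in old. Of the single marker genes 4 were called with age, and they are named here after their values were seen. They were 1 of 6 osteoblast, 1 of 1 muscle precursor, 1 of 12 stromal and 1 of 5 chondrocyte markers tested. None of the 12 blood, 3 endothelial, 4 adipocyte and 8 dividing cell markers tested was called. Of all genes 2.23% were called. Alpl, an osteoblast phosphatase (0.98 ± 0.15, adjusted p = 0.00287, edgeR), and the muscle filament gene Des (2.15 ± 0.33, 0.00283) were higher. The MSC marker Pdgfra (-0.86 ± 0.15, adjusted p = 0.0059) and the cartilage collagen gene Col9a1 (-2.74 ± 0.68, 0.0474) were lower, and both lost the call without old replicate 1 of batch B (adjusted p = 0.0912 and 0.308). Col9a1 also lost it without any of 6 other libraries. The part of these markers in the members' differences was not tested. Without old replicate 1 of batch B, H19 was at 0.07, and without old replicate 2, Igf2 was at -0.11.

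Batches A and B were compared at constant age in the 6 young libraries. Here 3 members were called higher in batch B (H19 1.13 ± 0.17, Mest 0.57 ± 0.15 and Cdkn1c 1.36 ± 0.26) and 3 lower (Igf2 -0.72 ± 0.23, Dlk1 -1.61 ± 0.30 and Meg3 -0.64 ± 0.17), while 18.1% of 14840 genes were called, 9.39% higher and 8.71% lower. The same 6 members were those whose groups did not overlap, 3 in each direction, against 20.1% and 20.8% of all genes, and the median over the 10 members was 0.15 against 0.01. H19 and Igf2, and Cdkn1c on the same chromosome, thus did not share a direction, whereas Dlk1 and Meg3 did. Peg3 was at 0.60 ± 0.25, Grb10 at 0.15 ± 0.14, Ndn at 0.14 ± 0.13 and Plagl1 at -0.01 ± 0.17. Leaving out young replicate 2 of batch B ended the calls of Igf2, Dlk1 and Meg3, and leaving out young replicate 1 those of Igf2, Meg3 and Mest (at 0.31). Igf2 also lost its call without batch A replicate 2, 3 or 4 and when scaled by total counts, and Mest without batch A replicate 2.

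Batches B and C were compared in the 5 old libraries. Of the members, 6 were called higher in batch C (Meg3 3.57 ± 0.08, Dlk1 1.68 ± 0.22, H19 1.58 ± 0.19, Igf2 1.37 ± 0.14, Cdkn1c 0.95 ± 0.14 and Plagl1 0.93 ± 0.08) and 2 lower (Mest -0.44 ± 0.11 and Ndn -0.25 ± 0.07), and Peg3 (0.33 ± 0.17) and Grb10 (0.04 ± 0.06) were not called. In this comparison 64.7% of 15651 genes were called, 32.1% higher and 32.6% lower. The groups did not overlap in 7 members with batch C higher and in 2 with batch C lower, against 38.8% and 37.4% of all genes. The median was 0.94 for the members and 0.02 for all genes. The maternally expressed H19, Meg3 and Cdkn1c and the paternally expressed Igf2, Dlk1 and Plagl1 were thus higher in batch C, and those lower were paternally expressed. Scaled by total counts, Mest (-0.25) and Ndn (-0.06) were no longer called and Peg3 and Grb10 were called higher, and without batch C replicate 2 Ndn (-0.19) was not called.

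Long transcripts as a whole were higher in batch C. The median log2 fold change was 0.52 among genes of the highest length decile, with Meg3 and Peg3, 0.28 in the decile of Plagl1 and Grb10, and 0.16 in that of Igf2 and Dlk1. It was -0.06 in the decile of H19 and -0.16 in that of Cdkn1c. Against the median of its own decile, Meg3 was higher by 3.05, Dlk1 by 1.53, H19 by 1.64, Igf2 by 1.21, Cdkn1c by 1.12 and Plagl1 by 0.65. The others were below it, with Peg3 at -0.19, Grb10 at -0.24, Ndn at -0.32 and Mest at -0.38. The part of transcript length in the members' differences was not tested. The 12 blood markers were all lower in batch C than in batch B, 6 of 8 markers of dividing cells and 4 of 6 osteoblast markers were higher, as were 3 of 4 adipocyte markers tested. Their part in the members' differences was not tested.

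Batch C old and batch A young differ in age and batch at once, which cannot be told apart. Batch C old lay above batch A young without overlap in 6 members (H19, Igf2, Meg3, Plagl1, Grb10 and Cdkn1c) and below in 1 (Mest), and 3 (Dlk1, Peg3 and Ndn) overlapped. Over all genes, 28.7% were separate in the higher and 33.3% in the lower direction.

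**Figure D2:**
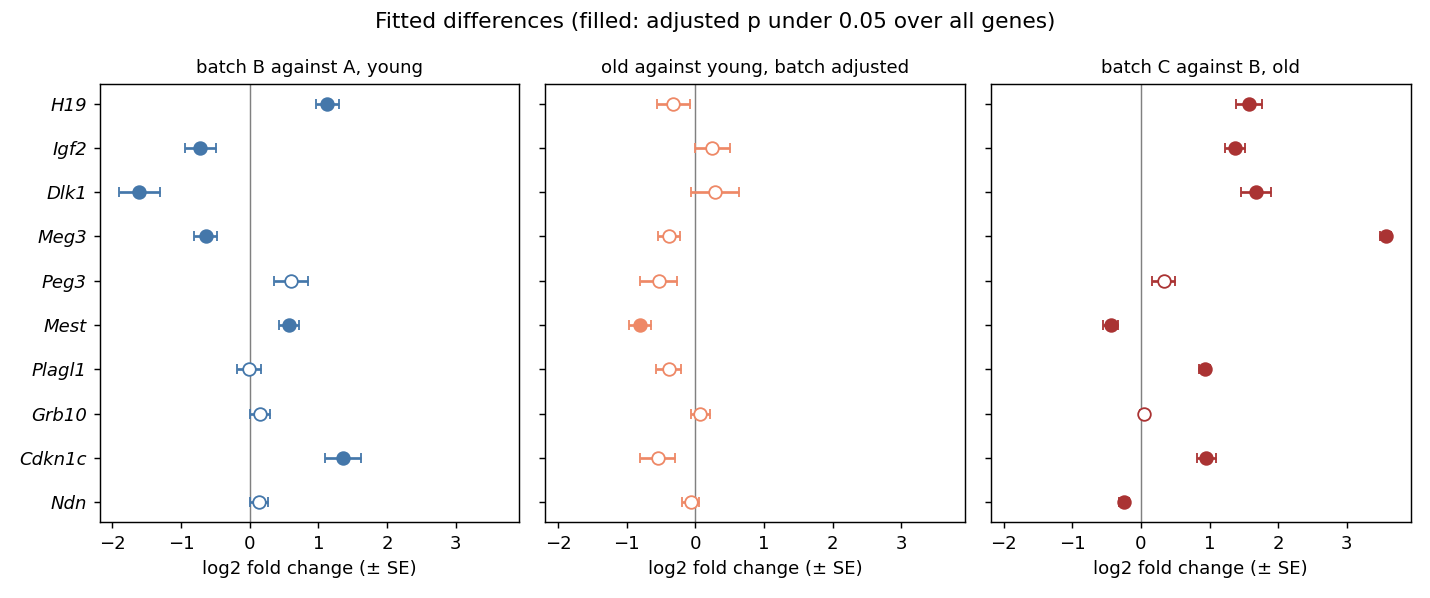
Log2 fold change (x axis) with its SE for each of the 10 genes in 3 comparisons, batch B against A in young libraries, old against young adjusted for batch, and batch C against B in old libraries. Filled points passed an adjusted p of 0.05 over all genes (edgeR). The batch comparisons hold 6 and 8 filled points and the age comparison 1, and Meg3 at 3.57 stands apart from the other members.

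Whether the members moved together was described with the distance between profiles, the root mean square difference of log2 CPM over the 11 libraries after the mean of each gene was subtracted, so that 0 means identical profiles. The libraries share batches, and no test was made. Cdkn1c was nearest to H19 at 0.40, and 0.322% of 16131 genes were nearer. Igf2 and Plagl1 followed at 0.79, with 16% and 16.1% of genes nearer. Peg3 was at 0.84, Grb10 at 0.89 and Meg3 at 0.92, below the median of all genes, 1.05. Ndn (1.06), Dlk1 (1.16) and Mest (1.27) were farther than that median, with 80.8% of genes nearer than Mest. Grb10 and Ndn had the flattest profiles, with a root mean square deviation of 0.15 from their own means that 94.3% and 94.6% of genes exceeded.

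Over the 45 pairs of members, distances ranged from 0.26 (Grb10 and Ndn) to 1.74 (Meg3 and Mest), with a median of 0.79. Deviation was widest for Meg3 (1.38, exceeded by 1.18% of genes), H19 (0.99, by 5.6%), Dlk1 (0.86, by 9.22%) and Cdkn1c (0.78, by 13%). Of the 6 members called in both batch comparisons, 2 (H19 and Cdkn1c) were called in the same direction and 4 (Igf2, Dlk1, Meg3 and Mest) in opposite directions. Both comparisons involve batch B, and the share of all genes with opposite directions was not computed. These counts are therefore not read as particular to the members. Batch C old had the highest mean in 7 members and the lowest in 2. The share of all genes with batch C old highest or lowest was not computed either. This count too is not read as particular to the members.

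**Figure D3:**
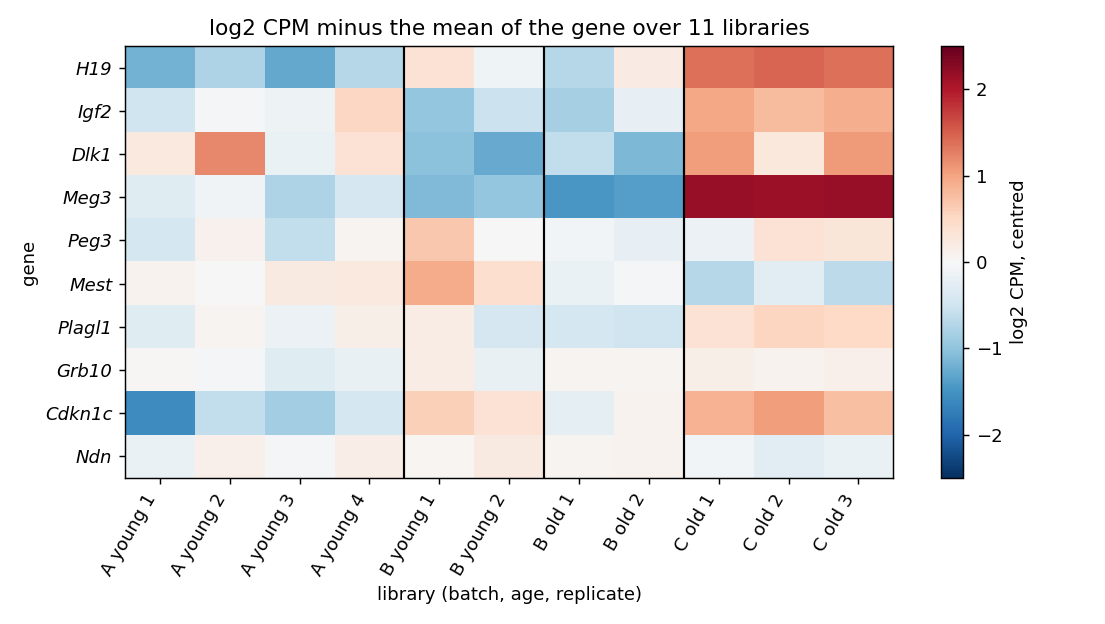
Log2 CPM of the 10 genes in each of the 11 libraries after subtraction of the gene's mean (red above, blue below the mean, scale from -2.5 to 2.5), ordered by group. H19 and Cdkn1c step up from batch A through batch B to batch C, Meg3 is below its mean outside batch C, and Mest shows the reverse of Meg3 in batch C.

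Tested genes with predicted Gm or Rik names or without a symbol were left out of the search for the profiles nearest to H19. The nearest genes among the rest were Efemp1 (0.22), a protein of the extracellular matrix, Oxtr (0.23), the oxytocin receptor, Angpt1 (0.26), a ligand of the Tek receptor, Steap4 (0.27), a metalloreductase, and Egfl8 (0.30). None is a member, and all but Egfl8 were well above the detection limit. Efemp1 had mean CPM of 44.6, 94.1, 75.6 and 207 in batch A young, batch B young, batch B old and batch C old. Angpt1 had 10.1, 21.7, 17 and 42.8 CPM in the same groups, and Egfl8 did not exceed 0.53 CPM in any library.

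The ratio of 2 genes in a library is free of scaling between libraries. A ratio is not free of the shift with transcript length between batches B and C. The medians of the length deciles there were 0.52 for Meg3 and 0.16 for Dlk1, and -0.06 for H19 and 0.16 for Igf2. The part of this shift in the ratios was not tested. H19 over Igf2 was 0.625 to 0.922 in the 4 libraries of batch A young and thus below 1. It was 3.69 and 1.97 in batch B young, 1.62 and 1.94 in batch B old and 1.96 to 2.32 in batch C old, all above those of batch A. Meg3 over Dlk1 was 1.01 to 1.68 in batch A young, 2.33 and 3.07 in batch B young, 1.39 and 2.09 in batch B old and 5.32 to 9.04 in batch C old, where it was above all other libraries. Both pairs therefore had the noncoding RNA lowest against its partner in batch A young on average, but the groups of the second pair overlapped between batch A young and batch B old.

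**Figure D4:**
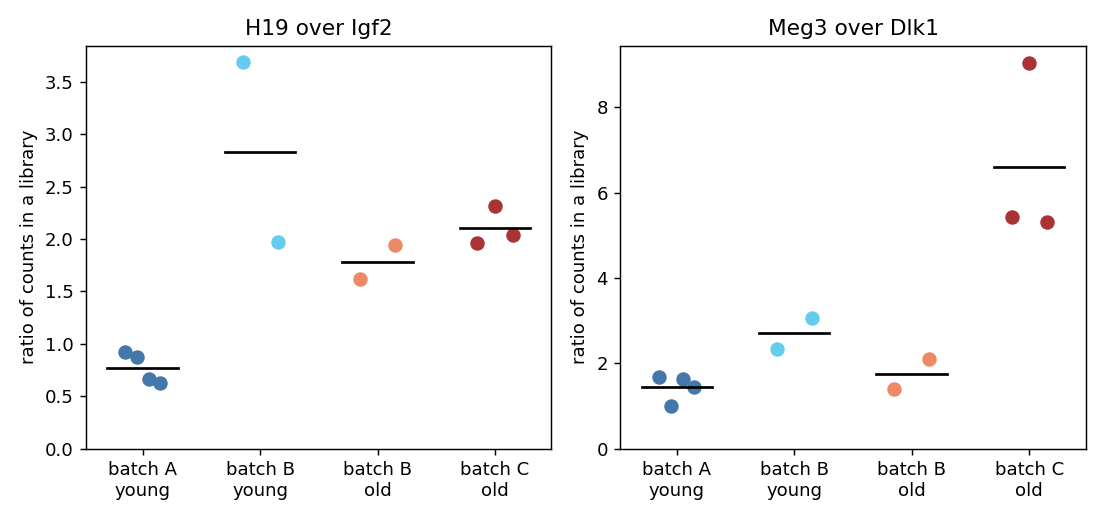
Ratio of counts of H19 over Igf2 (left) and of Meg3 over Dlk1 (right) in each library, with bars at group means, for batch A young, batch B young, batch B old and batch C old. H19 over Igf2 is below 1 in the 4 libraries of batch A alone, and Meg3 over Dlk1 is above 5 in the 3 libraries of batch C alone.

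The members were then set against their neighbours. In the Dlk1 to Dio3 domain of chromosome 12, 6 of 7 tested genes were higher in batch C than in batch B, where 32.1% of all genes were. This count includes the members Dlk1 and Meg3, and the others were Begain (log2 fold change 1.38 ± 0.23, adjusted p = 0.000255, edgeR), the retrotransposon-derived Rtl1 (2.60 ± 0.37, 7.31e-05), and the noncoding RNAs Rian (1.02 ± 0.07, 1.3e-07) and Mirg (1.93 ± 0.17, 9.86e-07). Rtl1 and Begain were low. Rtl1 had 0.606 and 0.601 CPM in batch B old and 2.94 to 5.08 in batch C old, and Begain 1.68 and 2.27, and 4.52 to 5.65. Begain lies before Dlk1 on the chromosome (chr12:109032187-109068217), outside the stretch from Dlk1 to Dio3, and is counted with the domain here. Dio3, which inactivates thyroid hormone and closes the domain, was at -0.04 ± 0.09 (adjusted p = 0.737). Against batch A, 3 of the 7 were lower in batch B (8.71% of all genes), namely the members Dlk1 and Meg3 and Dio3 (-0.75 ± 0.19, adjusted p = 0.0188), and no gene of the domain was called with age. Dio3 lost that call without young replicate 1 of batch B.

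In the distal region of chromosome 7 that holds H19, Igf2 and Cdkn1c, 4 of 8 tested genes were higher and 1 was lower in batch C, a share called near the 64.7% of all genes (32.1% higher and 32.6% lower). Of the 4, 3 were the members H19, Igf2 and Cdkn1c, and the fourth was the noncoding RNA Kcnq1ot1 (2.78 ± 0.28, adjusted p = 3.92e-06, edgeR), at 2.02 and 2.14 in batch B old and 9.71 to 17.8 CPM in batch C old. It lies within Kcnq1 on the opposite strand, which had 4 counts in all libraries together. The tetraspanin gene Cd81 was lower (-0.83 ± 0.06, 3.46e-07). Between batches A and B, where 18.1% of all genes were called, 2 genes were higher (H19 and Cdkn1c) and 2 were lower, with Slc22a18 (-0.78 ± 0.19, adjusted p = 0.0142) lower alongside Igf2, and Slc22a18 lost its call without young replicate 2 of batch B.

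The domains of the other members held fewer tested genes. In the Ndn to Ube3a domain of chromosome 7, 2 of 3 were lower in batch C (32.6% of all genes) and 0 were higher (32.1%). They were Ndn and the paternally expressed Peg12 (-1.12 ± 0.22, adjusted p = 0.000707, edgeR), while the ubiquitin ligase gene Ube3a was at -0.15 ± 0.07 (0.0789). Between batches A and B, Ube3a was called higher in this domain, but not without any 1 of the 4 batch A libraries or without young replicate 1 of batch B. In the Peg3 domain, neither Peg3 nor Zim1 (0.87 ± 0.64 between batches B and C, adjusted p = 0.253) was called in any of the 3 comparisons, and no gene of either domain was called with age. Usp29, which starts next to Peg3, was too low to be tested.

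**Figure D5:**
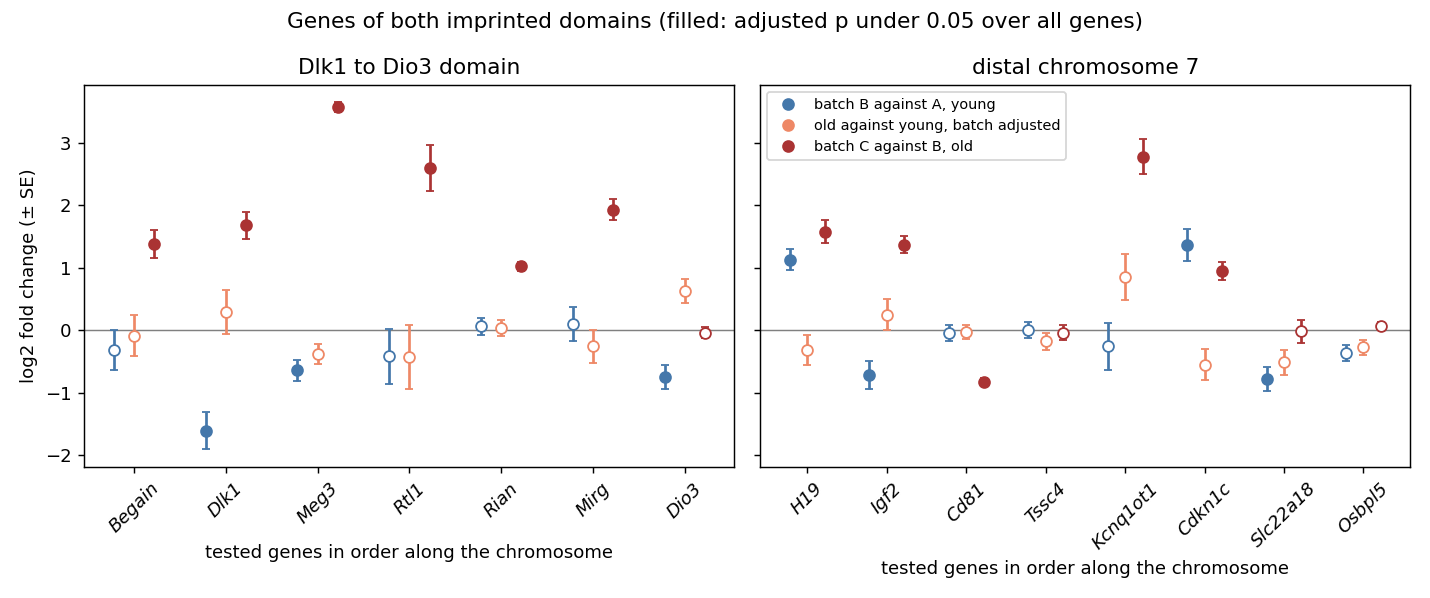
Log2 fold change with SE (y axis) for the tested genes of the Dlk1 to Dio3 domain (left, 7 genes) and the distal chromosome 7 region (right, 8 genes), placed in order along the chromosome, in 3 comparisons marked by colour. Filled points passed an adjusted p of 0.05 (edgeR). All genes of the left panel but Dio3 are filled and above 0 in the batch C comparison, while the right panel holds both directions.

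A wider list of genes imprinted in at least 1 mouse tissue held, besides the members, 22 paternally and 20 maternally expressed genes and Gnas, whose isoforms differ in parental origin, and 35 of them were in the table. With age, 1 of 27 tested was called (3.7%, against 2.23% of all genes). It was Asb4 (1.45 ± 0.32, adjusted p = 0.0263, edgeR), whose CPM were 2.5 and 4.29 in batch B young and 7.61 and 10.7 in batch B old. Asb4 lost its call without either old library or young replicate 1 of batch B. None was called lower, with 4 at an unadjusted p under 0.05 and none called lower by limma or DESeq2 either.

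Between batches A and B, 3 of 26 were called (11.5%, against 18.1% of all genes), namely Ube3a (0.38 ± 0.11, adjusted p = 0.0374), Slc22a18 and Dio3. Ube3a lost its call without the libraries given above. Between batches B and C, 18 of 27 were called (66.7%, against 64.7%), with 14 higher and 4 lower. Those with the smallest p were, besides the genes named above, Zrsr1 (0.87 ± 0.15, adjusted p = 0.000276) among the higher, and Asb4 (-1.61 ± 0.22, 4.64e-05), Peg12 (-1.12 ± 0.22, 0.000707) and H13 (-0.34 ± 0.07, 0.00112) among the lower. H13 was not called when scaled by total counts (adjusted p = 0.0776). Zrsr1 overlaps Gm28048, which had 5186 counts, on the opposite strand. Of the paternally expressed genes of this list 10 of 14 were higher and 1 lower, and of the maternally expressed ones 4 of 12 were higher and 3 lower. Of all genes 32.1% were higher and 32.6% lower, and a difference between both sets was not tested. The median log2 fold change over the list was -0.06 with age, 0.01 between batches A and B and 0.35 between batches B and C, against 0, 0.01 and 0.02 over all genes.

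Igf2 signals through receptors and binding proteins shared with IGF1, and 15 of 16 listed partners were in the table. With age, 2 of 15 were lower, against 1.54% of all genes. Igfbp3, a carrier of IGF1 and IGF2, had CPM of 37.9 and 52.5 in batch B young and 9.22 and 16.2 in batch B old (-1.82 ± 0.30, adjusted p = 0.0047, edgeR). Igfbp6, which prefers IGF2, had CPM of 312 and 414 in batch B young and 235 and 256 in batch B old (-0.57 ± 0.13, adjusted p = 0.0278). Igfbp3 lost its call without old replicate 1 of batch B, and Igfbp6 without either old library of batch B or any library of batch C.

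Between batches A and B 3 partners were higher and 3 lower (40%, against 18.1% of all genes), with Igfbp7 (0.83 ± 0.13, adjusted p = 0.002, edgeR) higher and Irs2 (-0.85 ± 0.21, 0.0165), Igf1r (-0.56 ± 0.14, 0.0178) and Igfbp4 (-0.58 ± 0.14, 0.0157) lower. Igfbp5 (0.48 ± 0.15, 0.0448) and Igf2bp2 (0.49 ± 0.16, 0.0494) were the others called higher, and both lost that call with limma. Igfbp5 also lost it without any single library of batch A, and Igf2bp2 without batch A replicate 2, 3 or 4. Igf1r is the receptor that transmits the growth signal of Igf2 and Igf1. Between batches B and C 11 of 15 were called (73.3%, close to the 64.7% of all genes), of which 8 were higher, among them Igfbp2 (1.41 ± 0.11, 4.92e-07), Irs2 (1.69 ± 0.15, 1.22e-06), Igf1r (0.72 ± 0.07, 3.63e-06) and Insr (0.95 ± 0.11, 1.43e-05). Irs1 (1.24 ± 0.14, 8.76e-06) and Igf2bp2 (0.6 ± 0.1, 0.000335) were also higher. Igfbp6 (-0.90 ± 0.07, 5.02e-07), Igfbp5 (-0.85 ± 0.08, 2.33e-06) and Igf1 (-0.75 ± 0.11, 5.67e-05) were lower, so that Igf1 and Igf2 differed in opposite directions. Medians over the partners were -0.20 with age, -0.28 between batches A and B and 0.36 between batches B and C. Igf1r and Irs2 lost their calls against batch A without young replicate 2 of batch B. Igf1r also lost its call without batch A replicate 3, and Igfbp4 did so without batch A replicate 3 or 4.

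Regulators of fetal growth, such as Plag1, a zinc finger activator of Igf2, were read from 9 tested genes. With age none was called by edgeR, limma or DESeq2, with 2 lower and 0 higher at an unadjusted p under 0.05 in edgeR. Plag1 was higher in batch B than in batch A (1.14 ± 0.26, adjusted p = 0.0112, edgeR) and higher again in batch C (2.25 ± 0.22, 2.65e-06), where 2 of 9 were called (22.2%, below the 64.7% of all genes). Igf2bp2 was the other gene called there (0.6 ± 0.1, adjusted p = 0.000335, edgeR), also higher in batch C. Between batches A and B 4 of 9 were called (44.4%, against 18.1%). Hmga2 (0.69 ± 0.17, adjusted p = 0.0157), the mRNA-binding protein gene Igf2bp2 (0.49 ± 0.16, 0.0494) and, in the lower direction, Hmga1 (-1 ± 0.19, 0.00531) were the others of these 4. Plag1 and Hmga2 lost those calls without young replicate 2 of batch B, and Hmga2 also without batch A replicate 3. Igf2bp2, also counted among the Igf2 partners, lost its call with limma and with DESeq2. The medians of this list were -0.08, 0.07 and 0.18 for age, batches A and B, and batches B and C.

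The list of genes that maintain or erase imprints held 15 genes, all tested. With age none was called by edgeR, limma or DESeq2, and 1 had an unadjusted p under 0.05 in edgeR. Between batches A and B 1 was higher (Arid4b 0.55 ± 0.14, adjusted p = 0.0193, edgeR) and 4 were lower, Uhrf1 (-1.27 ± 0.20, 0.00228), Dnmt3a (-0.65 ± 0.17, 0.0194), Tet3 (-0.63 ± 0.17, 0.0248) and Dnmt1 (-0.55 ± 0.16, 0.0329), in all 33.3% against 18.1% of all genes. Uhrf1 and Dnmt1 copy methylation at replication and are highest in dividing cells, and the 8 markers of dividing cells were also lower in batch B, whose part was not tested. Apart from Uhrf1, these calls were lost without batch A replicate 3 or young replicate 2 of batch B. Between batches B and C 14 of 15 were higher (93.3%, against 32.1% of all genes), with a median of 0.95 after -0.07 in each of the other comparisons, led by Arid4b (1.44 ± 0.07, 1.76e-08), Arid4a (1.42 ± 0.11, 3.31e-07) and Zfp445 (0.95 ± 0.07, 3.33e-07). Tet2 (1.82 ± 0.15, 6.42e-07), Zfp57 (1.76 ± 0.17, 2.94e-06) and Dnmt1 (1.04 ± 0.11, 6.41e-06) followed. Markers of dividing cells were also higher in batch C (6 of 8 called, sums of 164 to 244 CPM in batch B old and 448 to 514 in batch C old), as were long transcripts as a whole, and their part was not tested. Zfp57 and Zfp445 are zinc finger proteins that bind the methylated copy of imprinting control regions, and Zfp57 was at 3.57 and 3.94 in batch B old and at 10.8 to 13.9 CPM in batch C old.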

How the data were processed

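RNA was measured in 11 libraries, grouped by age and batch as in the labels. The authors deposited 1 table of read counts per Ensembl gene, as whole numbers that were not normalised. The submitters' processing notes name GRCm38 (mm10). The aligner, counter and use of strand are not given in the sources used here, so reads of overlapping genes can have been shared or lost. Of 28222 Ensembl identifiers, 28179 were matched to GENCODE M21 (GRCm38) and 43 were not.

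The deposited counts went unchanged into edgeR 4.0.16 (R 4.3.3), which filtered them with filterByExpr (minimum count 5), scaled them with TMM and tested them by quasi-likelihood. The tests were two-sided, with Benjamini-Hochberg adjustment over all tested genes and a threshold of 0.05. The age fit adjusted for batch over 11 libraries, while batch B against A used 6 young and batch C against B 5 old libraries. SEs were derived from F statistics. CPM were taken over TMM-scaled library sizes, with a prior count of 2 on the log2 scale. limma 3.58.1 (limma-trend) and DESeq2 1.42.0, other scalings and filters, thinning, a replicate block and leaving out each library were tried. Scripts were tested on simulated data.

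The 10 members and all lists were chosen with earlier results of these data known. All members are named, and of the other lists up to 6 genes called in each direction with the smallest p, together with the 5 genes nearest to the H19 profile that have a full symbol. Counting limits cover counting error only.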

Additional observations from a re-analysis of the deposited data

Results flagged for a closer look

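Dixon's ratio, the gap of the farthest library to its nearest neighbour over the range, was computed in the 4 libraries of batch A young for 20 quantities, and 2 passed its 95% critical value, where chance passes about 1 in 20. Total counts in batch A young had a ratio of 0.957, with replicate 1 at 20315934 counts. The summed chondrocyte markers in batch A young had a ratio of 0.879, with replicate 2 lowest at 954 CPM. None of the 10 members passed, the highest being Cdkn1c at 0.635.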

How the results depend on the processing

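With age, 360 genes were called, and 643 with DESeq2, 1094 without a filter, 2641 without the batch term and 123 in batch B alone. Members called with age numbered 1, but 3 (H19, Meg3 and Mest) without the batch term and 0 in batch B alone, where edgeR fitted 4 libraries. Without the batch term the log2 fold changes of H19 (1.47), Meg3 (2.09), Cdkn1c (0.85), Plagl1 (0.24) and Peg3 (0.06) were above 0. Other imprinted genes called with age numbered 1, but 2 with DESeq2, 2 without a filter, 7 without the batch term and 0 in batch B alone. Between batches A and B, scaling by total counts gave 5 other imprinted genes in place of 3.

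Leaving out 1 library gave 84 to 2007 genes with age (lowest without old replicate 1, highest without young replicate 2 of batch B), 511 to 4031 between batches A and B (without young replicates 2 and 1 of batch B) and 9047 to 9624 between batches B and C. Members called ranged from 0 to 2, 3 to 6 and 7 to 9, and other imprinted genes from 0 to 5, 2 to 3 and 15 to 18. A group left with 1 library was assumed to vary like the others. When totals were used in place of TMM, higher genes among the calls went from 31.1% to 44.8% with age, from 51.9% to 66.4% between batches A and B and from 49.6% to 62.9% between batches B and C, where the median of all genes moved from 0.02 to 0.22. The causes were not tested.

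Whether same-numbered libraries are paired is not known. Their deviations correlated at -0.111 to 0.0365, which cannot exclude shared mice or preparations. Between the ages of batch B, with 2 libraries each, both replicate numbers necessarily gave the same value (0.0365). With a replicate block, genes called were 294 with age, 729 in place of 2686 between batches A and B, where members called were 4 (H19, Dlk1, Meg3 and Cdkn1c), and 9154 between batches B and C. With 2 libraries per age in batch B, small differences of age are not resolved.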
